A study of Mus musculus with 12 samples.

Results

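The span from the morula, a compacted ball of cells whose first lineages have not yet separated, to the late blastocyst, a hollow embryo whose inner cell mass is dividing into epiblast and primitive endoderm, is described here for mouse embryos, with the genes of the cellular stress responses followed in most detail. All 4 late blastocyst libraries were set against all 4 morula libraries, which are 8 of the 12 libraries of the series and were taken by their stage label alone. Late blastocysts had been injected as zygotes with siRNA against Tdgf1 (n = 2) or with negative control siRNA (n = 2), and morulae likewise with Tdgf1 siRNA (n = 2) or negative control siRNA (n = 2). Every group was of the outbred CD1 stock and also received GFP mRNA as a marker of injection, so no group was left uninjected. The 4 early blastocyst libraries, 2 of each siRNA, served to place the stage in between. Tdgf1 encodes Cripto, a membrane-anchored coreceptor for Nodal. The sources used here do not give the number of embryos in a library, nor whether the 2 libraries of a group are separate embryos or injections. The p-values therefore reflect library-to-library spread alone, part or all of which may be technical.

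Cells answer stress through a small number of transcriptional programmes. In the integrated stress response, phosphorylation of the initiation factor eIF2 lowers general translation while the transcription factor ATF4 is still made and turns on genes for amino acid uptake and synthesis. Misfolded proteins in the endoplasmic reticulum act through XBP1, ATF6 and PERK, misfolded proteins in the cytosol through HSF1 and the HSP90 and HSP70 chaperones, oxidants through NRF2, and low oxygen through HIF1. Preimplantation embryos use several of these programmes in normal development and also when culture conditions are poor.

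Levels are given in CPM, a gene's reads scaled to a common library total, and are not divided by gene length, so levels of different genes are not compared. The 8 libraries held 10524640 to 12964712 reads. Of 43472 genes in the table, 10859 had a mean of at least 3.582 CPM (1 unit of the deposited values) over the 8 libraries and were tested. The test was limma on log2 values with the siRNA as a covariate and Benjamini-Hochberg adjustment over all 10859 genes. A gene rose or fell where its adjusted p was under 0.05, and each log2 change is late blastocyst minus morula with its standard error (SE). Where a gene's values are listed, they come as Tdgf1 siRNA numbers 1 and 2 and then control siRNA numbers 1 and 2.

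Most of the transcriptome differed between the ends of the span. Of the genes tested, 4254 rose (39.2%) and 2796 fell (25.7%), 64.9% in all, and 3809 did not pass. The split depended on the scaling: 60.3% of called genes were higher with the deposited CPM scaling, 51.1% after TMM scaling (trimmed mean of M values) and 46.6% after quantile normalization. The median log2 change of all genes was 0.13 as deposited and 0.00 after TMM, so the scalings are shifted by 0.13 and small changes are best read against that shift. Of the calls, 6402 were made in the same direction under both of these scalings and 0 in opposite directions. At least 2-fold changes were seen for 1732 genes that rose and 819 that fell. All 4 late blastocyst libraries lay on 1 side of all 4 morula libraries for 6420 genes (59.1%). On the first principal component (70.9% of the variance over 12 libraries) the morula libraries lay between -50.5 and -46.2 and the late blastocyst libraries between 47.2 and 61.1, the lowest of them Tdgf1 siRNA number 1.

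The stage labels were checked against lineage markers, and most of those of the trophectoderm and the primitive endoderm rose over the span. Of 28 trophectoderm genes tested 23 rose (82.1%, against 39.2% of all genes) and 3 fell (10.7%, against 25.7%), with a median log2 change of 2.18. Keratin 18, Krt18, averaged 3339.8 ± 661 CPM in late blastocysts and 135 ± 43.4 CPM in morulae (SD, n = 4 each), and Eomes, a trophoblast transcription factor, 191 ± 23.2 CPM in late blastocysts and 7.33 ± 4.35 CPM in morulae (SD, n = 4 each). Elf5, another trophoblast regulator, was listed at 0 in all 4 morula libraries and averaged 15.3 ± 6.6 CPM in late blastocysts. Hand1 went the other way, with 1.92, 0.353, 0.642 and 0.0771 CPM in late blastocysts, against 67.6, 66.3, 87.2 and 72.2 CPM in morulae (log2 change -4.16 ± 0.17, adjusted p = 6.6e-10). Of 20 primitive endoderm genes tested 16 rose (80%) and 2 fell (10%). Sox17 averaged 38.5 ± 10.2 CPM in late blastocysts and 0.0660 ± 0.0831 CPM in morulae (SD, n = 4 each), whereas Gata6, which marks this lineage later but is widespread in morulae, fell (log2 change -0.86 ± 0.11, adjusted p = 2.0e-05). Of 20 epiblast and pluripotency genes, 6 rose (30%) and 10 fell (50%). Nanog had 115, 95.9, 85.1 and 80.7 CPM in late blastocysts, against 286, 403, 349 and 560.4 CPM in morulae. All 4 late blastocyst values were below every morula value. Since each library is RNA of whole embryos, fewer cells of a type and less RNA per cell cannot be told apart, here or in any result below.

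Markers of other cells that could have been carried along were mostly near 0. Of 14 cumulus and granulosa genes 2 passed the filter, and Foxl2, Inha and Inhba were at 0 in all 8 libraries. Serpine2 averaged 85.5 ± 10.3 CPM in late blastocysts and 18.4 ± 5.15 CPM in morulae (SD, n = 4 each), and Amhr2 averaged 5.13 ± 1.43 CPM in late blastocysts and 17.6 ± 4.15 CPM in morulae (SD, n = 4 each). Of 14 blood and reproductive tract genes 4 passed it, of which Epcam and Vim rose, Cd74 fell and Pecam1 did not pass, and the haemoglobin gene Hbb-bt was at 0 throughout. The summed level of the cumulus list was 78.2 to 100.3 CPM in late blastocysts and 30.03 to 42.6 CPM in morulae, nearly all of it Serpine2 and Amhr2. That of the blood list was 1458 to 1643 CPM in late blastocysts and 229 to 409 CPM in morulae, nearly all of it Epcam. Their part in the results was not tested.

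The 12 stress lists hold 316 genes, of which 279 passed the filter. Among these, 133 rose, 69 fell and 77 did not pass (72.4% called, against 64.9% of all genes tested), with a median log2 change of 0.24 against 0.13 for all genes. After TMM scaling 115 rose and 87 fell, against 3606 and 3452 of all 10859 genes tested. The all-gene shares given for single lists, 39.2% higher and 25.7% lower, belong to the deposited scaling. They are not a background for list counts after TMM scaling. The lists did not move as a block: in the antioxidant list 26 of 44 members rose and 8 fell, whereas in the heat shock list 9 of 31 rose and 16 fell.

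**Figure D1:**
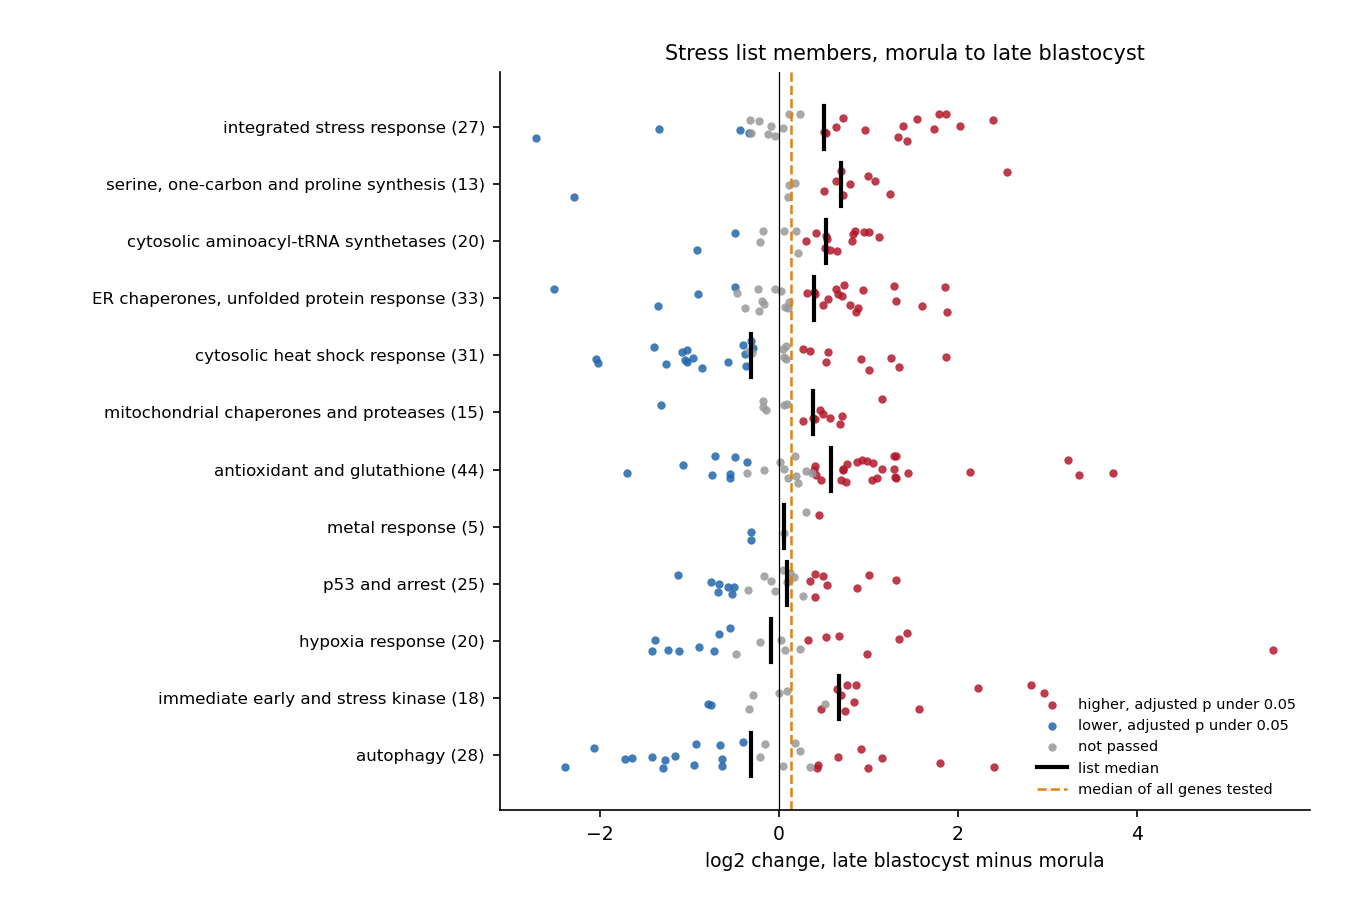
Log2 change from morula to late blastocyst (horizontal axis) of each tested member of the 12 stress lists, 1 row per list with the number of members in brackets; red points rose and blue points fell at adjusted p under 0.05, grey points did not pass, black bars are list medians and the dashed line is the median of all genes tested. The medians run from -0.32 for the heat shock list to 0.69 for serine, one-carbon and proline synthesis, and those of the metal and p53 lists (0.05 and 0.09) turn negative after TMM scaling.

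To see which of these changes were gradual, each called gene's early blastocyst level was placed on its own span, with 0 at the morula mean and 1 at the late blastocyst mean on the log2 scale. Positions of 0.25 to 0.75 were called gradual, above 0.75 to 1 early, from 0 to under 0.25 late, and anything else outside the 2 ends. The position uses the same 8 libraries as the change, so the shares below are a description with no test. A separate limma test asked whether a gene's early blastocyst level lay off the midpoint of its span. At adjusted p under 0.05 it did for 2743 of all genes tested (25.3%) and for 86 of the 279 stress genes. Of these 86 stress genes 63 were called over the span. A gene at a gradual position can thus lie off the midpoint. Of the 7050 called genes 47.6% were gradual, 10.8% early, 17.4% late and 24.2% outside. Of the 202 called stress genes 84 were gradual (41.6%), 23 early, 35 late and 60 outside (29.7%). A stricter pattern, in which all 12 libraries fall into stage order with no overlap, was met by 29 of 279 stress genes (10.4%) against 11.8% of all genes tested. Both shares lie near those of the whole table, so neither is a result about the stress genes. The early blastocyst libraries numbered 1 stood nearer to the late blastocyst than those numbered 2, with median positions of called genes of 0.52 and 0.31, and with each number taken alone 40 of the 84 gradual stress genes stayed gradual in both.

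**Figure D2:**
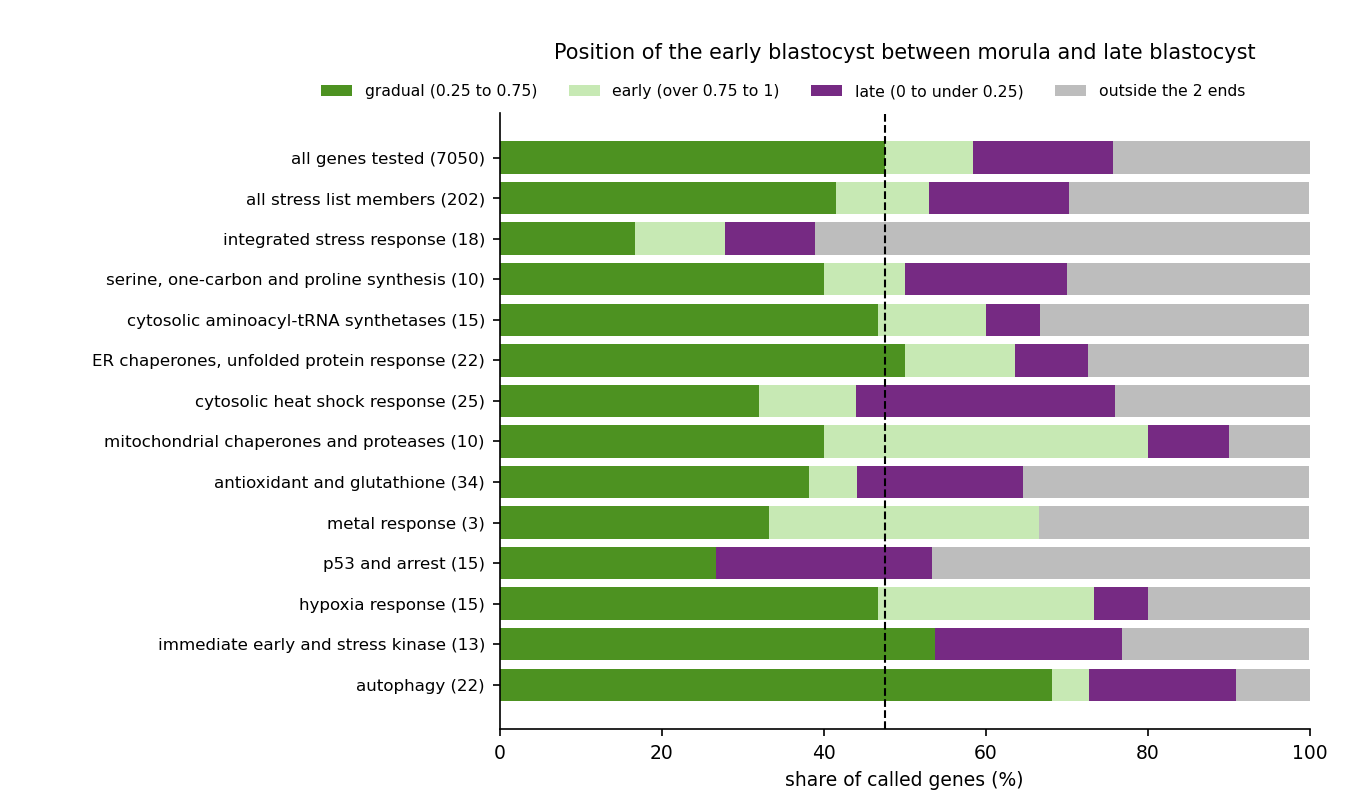
Share (%) of called genes at each early blastocyst position, for all genes, all stress members and each stress list, with the number of called genes in brackets; the dashed line marks the gradual share of all called genes, 47.6%. The autophagy list has the highest gradual share (68.2%) and the integrated stress response list the lowest (16.7%).

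Of 27 integrated stress response members tested 14 rose, 4 fell and 9 did not pass, with a median log2 change of 0.50, and more of them were called in the step after the early blastocyst than in the step before it. The share called, 66.7%, is near the 64.9% of all genes. After TMM scaling 14 rose and 8 fell, and with a filter of 5 deposited units, which tests fewer genes, 8 rose. Of the 18 called members 3 were gradual (16.7%, against 47.6% of all called genes). For 11 the early blastocyst lay on the far side of the morula, as for 1043 of all 7050 called genes. The median position of the 18 was -0.09, near the morula mean, and Slc38a2 stood at -0.07. Between morula and early blastocyst 1 member rose (22.1% of all genes) and 4 fell (16.2%), 38.2% of all genes being called, and between early and late blastocyst 14 rose (29.8% of all genes) and 4 fell (19.1%), with 49.0% called.

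Slc38a2, a transporter of small neutral amino acids, had 47.7, 85.9, 95.6 and 104 CPM in late blastocysts, against 16.1, 5.86, 15.7 and 14.1 CPM in morulae. Every late blastocyst value exceeded every morula value, and the early blastocyst libraries (9.52, 12, 10.003 and 10.3 CPM) stayed within the morula range. The log2 change was 2.4 ± 0.22 (SE), with adjusted p = 7.6e-07. Asns, asparagine synthetase, had 64.2, 83.5, 149 and 166 CPM in late blastocysts, against 37.4, 27.9, 20.2 and 24.1 CPM in morulae. The groups did not overlap (log2 change 1.87 ± 0.25, adjusted p = 2.4e-05), and the early blastocyst libraries held 21.2, 26.7, 29 and 28.2 CPM. Ddit3, which encodes CHOP, had 72.5, 69.3, 90.9 and 101 CPM in late blastocysts, against 19.2, 21.8, 15.9 and 30.8 CPM in morulae (log2 change 1.79 ± 0.16, adjusted p = 7.9e-07), without overlap. Trib3, a pseudokinase induced by ATF4, averaged 24 ± 13.1 CPM in late blastocysts and 6.62 ± 2.41 CPM in morulae (SD, n = 4 each). Nupr1, a small chromatin-associated stress protein, rose (log2 change 1.73 ± 0.44, adjusted p = 0.0035), but its lowest late blastocyst value, 1.66 CPM in Tdgf1 siRNA number 1, lay below every morula value, while the other 3 libraries had 25.2 to 34.9 CPM. Jdp2, an AP-1 family repressor, had 8.64, 13.4, 27.5 and 15 CPM in late blastocysts, against 2.76, 1.28, 3.83 and 3.71 CPM in morulae (log2 change 1.54 ± 0.20, adjusted p = 1.6e-05).

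Atf4 itself rose by a smaller log2 change (log2 change 0.63 ± 0.12, adjusted p = 4.5e-04), while the eIF2 kinase genes Eif2ak1 and Eif2ak3 did not pass (log2 changes 0.11 and 0.24). The transporters Slc7a1 (log2 change 1.43 ± 0.25, adjusted p = 2.2e-04) and Slc3a2 (log2 change 0.96 ± 0.15, adjusted p = 7.6e-05) also rose. Among the members that fell, Cth, cystathionine gamma-lyase, had 18.1, 28.4, 21.8 and 33.3 CPM in late blastocysts, against 212, 151, 232 and 150.2 CPM in morulae. Its early blastocyst libraries had 43.6, 100.2, 61.8 and 108 CPM. It was the only member of the list with all 12 libraries in stage order, at a position of 0.47 (log2 change -2.71 ± 0.18, adjusted p = 4.8e-08). Its partner enzyme of transsulfuration, Cbs, rose (log2 change 2.03 ± 0.27, adjusted p = 2.3e-05), at a position of 0.49. Ddit4, an inhibitor of mTORC1, fell (log2 change -1.34 ± 0.24, adjusted p = 3.0e-04). Classic targets Atf3, Chac1 and Fgf21 were below the filter, with maxima of 5.25, 10.3 and 0.0933 CPM over the 8 libraries.

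The promoters of the ATF4-linked genes that rose are shown because they hold the letters TGATGNAA, the element ATF4 binds with its C/EBP partners. RefSeq promoter windows (250 bases before to 50 after the start site, build GRCm38.p6) were found for 12 of the 14 members that rose, and 5 of the 12 hold the element on either strand (41.7%), against 2.52% of the 7905 tested genes with a window. The list was assembled from known ATF4 targets, so this count is a description. Below, 150 bases before to 30 after the start site are printed on the gene's strand, with the element in capitals.
Asns, chr6:7693180-7693359, minus strand: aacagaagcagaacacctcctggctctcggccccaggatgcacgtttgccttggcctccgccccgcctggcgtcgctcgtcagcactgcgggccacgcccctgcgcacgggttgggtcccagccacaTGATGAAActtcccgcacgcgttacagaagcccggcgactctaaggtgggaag
Trib3, chr2:152344031-152344210, minus strand: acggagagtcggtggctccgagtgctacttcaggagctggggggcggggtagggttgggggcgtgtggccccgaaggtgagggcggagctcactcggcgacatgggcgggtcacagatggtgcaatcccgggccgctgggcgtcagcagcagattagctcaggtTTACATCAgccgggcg
Nupr1, chr7:126625441-126625620, minus strand: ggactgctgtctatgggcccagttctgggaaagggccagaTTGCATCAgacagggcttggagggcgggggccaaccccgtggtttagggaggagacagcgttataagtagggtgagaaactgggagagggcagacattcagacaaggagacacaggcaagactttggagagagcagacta
The element lies 23 bases before the start site of Asns and 110 bases before that of Nupr1, and 15 bases after that of Trib3, the last 2 as its reverse complement.

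**Figure D3:**
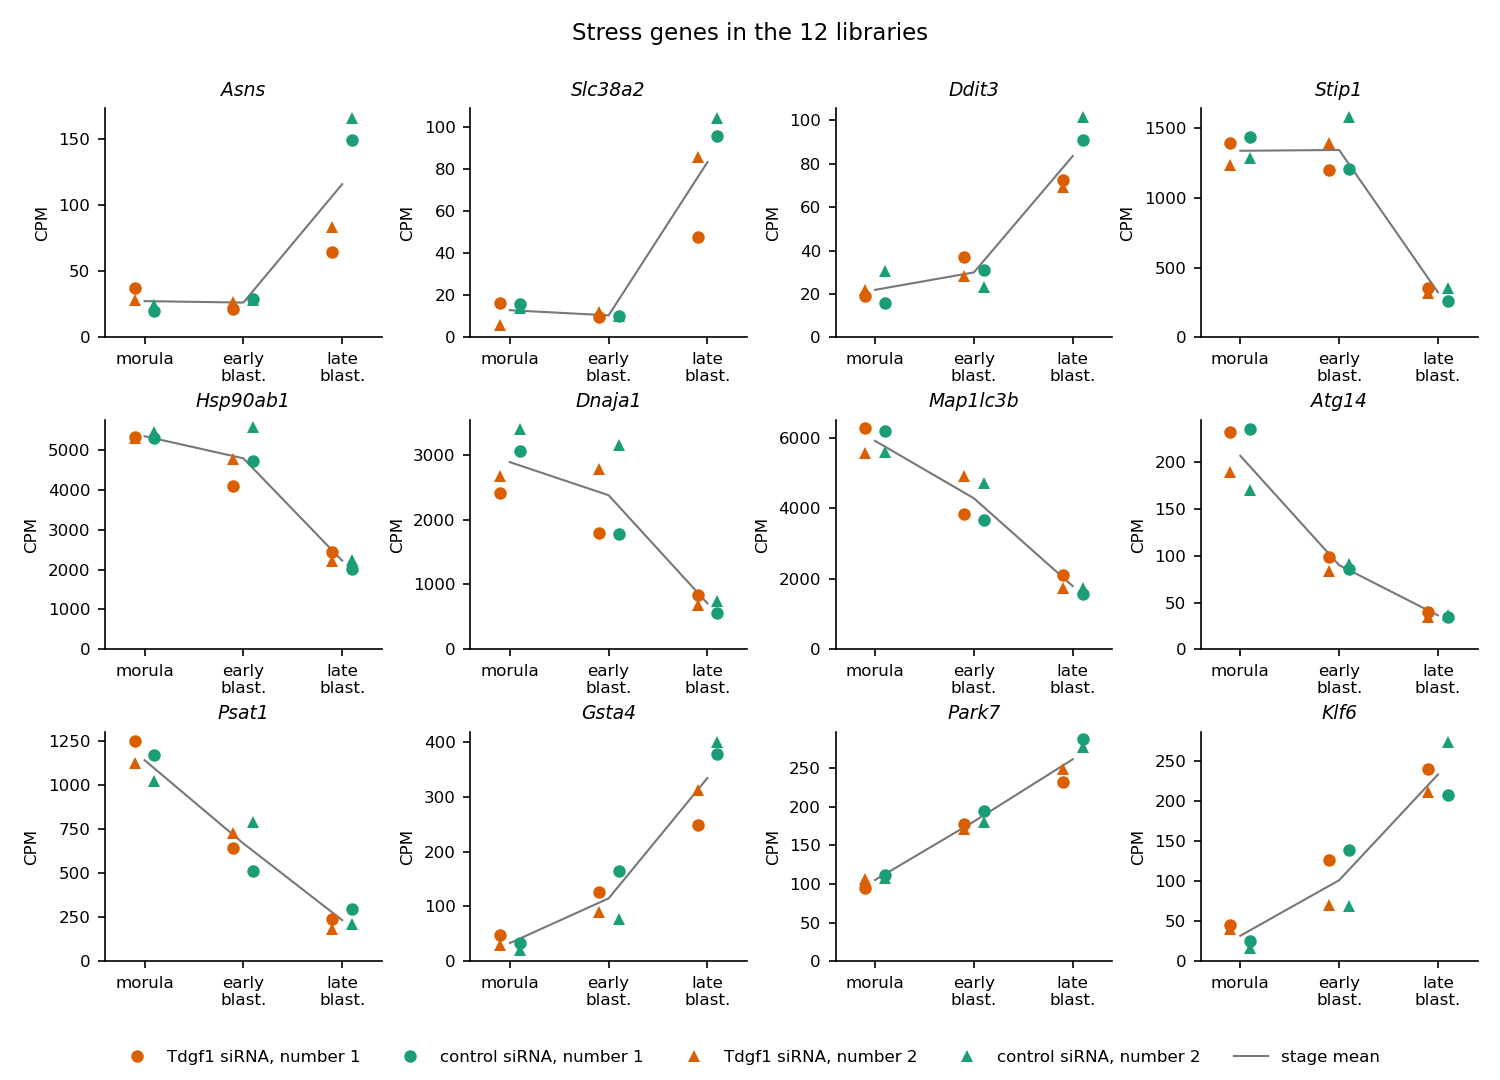
Levels in CPM (vertical axes, each from 0) of 12 stress genes in the 12 libraries at morula, early blastocyst and late blastocyst; colours mark the siRNA, circles and triangles library numbers 1 and 2, and grey lines join stage means. The early blastocyst values of Asns, Slc38a2 and Stip1 lie beside the morula values, and Map1lc3b, Atg14, Psat1, Gsta4, Park7 and Klf6 change in stage order without overlap.

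Genes of amino acid synthesis and charging, many of which are ATF4 targets in other mouse cells, were followed in a pair of lists. Of 13 serine, one-carbon and proline genes 9 rose (69.2%, against 39.2% of all genes), 1 fell and 3 did not pass. The median log2 change was 0.69, and the counts were the same after TMM. In the Tdgf1 siRNA libraries alone 3 rose and 1 fell, and in the controls alone 9 rose and 1 fell. Of all genes, 3075 rose in the Tdgf1 siRNA libraries alone and 3375 in the controls alone. Counts from separate fits do not test a difference between the arms, which is tested for single genes further on. The member that fell had the largest change in the serine pathway. Psat1, phosphoserine aminotransferase, had 242, 182, 299 and 211 CPM in late blastocysts, against 1251, 1129, 1172 and 1023 CPM in morulae. The early blastocyst libraries (646, 729.7, 511 and 793 CPM) lay between these ranges with no overlap (log2 change -2.29 ± 0.13, adjusted p = 1.3e-08). The enzymes before and after it rose: Phgdh averaged 137 ± 18.2 CPM in late blastocysts and 95.7 ± 15 CPM in morulae (SD, n = 4 each) and Psph 47.6 ± 9.05 CPM in late blastocysts and 18 ± 4.17 CPM in morulae (SD, n = 4 each). Aldh18a1, which starts proline synthesis, had 13.7, 28.9, 40.1 and 36 CPM in late blastocysts, against 2.50, 1.56, 1.40 and 1.62 CPM in morulae (log2 change 2.56 ± 0.23, adjusted p = 7.4e-07), without overlap. Mthfd1, of folate metabolism, had 145, 142, 189.6 and 144 CPM in late blastocysts, against 83.7, 95.5, 83 and 88.2 CPM in morulae, and rose in stage order (log2 change 0.79 ± 0.11, adjusted p = 3.4e-05).

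Of 20 cytosolic aminoacyl-tRNA synthetase genes 13 rose (65%, against 39.2% of all genes), 2 fell and 5 did not pass (median 0.52). After TMM scaling 11 rose and 3 fell. In the Tdgf1 siRNA libraries alone 8 rose, and in the controls alone 12, which again does not test a difference between the arms. Of 7 gradual members 2 stayed gradual with each early blastocyst number taken alone. Gars, for glycine, had 169.9, 178, 278 and 222 CPM in late blastocysts, against 103, 96.5, 110.0 and 117 CPM in morulae (log2 change 0.95 ± 0.10, adjusted p = 4.4e-06). Sars, for serine, averaged 234 ± 43.7 CPM in late blastocysts and 113 ± 6.17 CPM in morulae (SD, n = 4 each) and had reached that level in early blastocysts (position 0.98), while Cars, for cysteine, stood at 0.34 (log2 change 1.12 ± 0.13, adjusted p = 6.8e-06), with 0.45 for the libraries numbered 1 and 0.23 for those numbered 2. Qars, for glutamine, fell instead, with 104, 124, 117 and 109 CPM in late blastocysts, against 216, 205, 227 and 218 CPM in morulae (log2 change -0.91 ± 0.09, adjusted p = 1.6e-06). Groups did not overlap for any of these 4 genes.

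In the endoplasmic reticulum list 18 of 33 members rose, 4 fell and 11 did not pass (median 0.39). The share called, 66.7%, is near the 64.9% of all genes and is not a result about the list. After TMM scaling 14 rose and 6 fell. Of the 22 called members 11 were gradual, a share of 50% against 47.6% of all called genes, and 5 of these with each early blastocyst number alone. Xbp1, the transcription factor at the centre of this response, had 124, 161, 160.4 and 142 CPM in late blastocysts, against 23.6, 36.9, 33.1 and 65.1 CPM in morulae. No values overlapped, and the early blastocyst libraries (97.2, 116, 126 and 115 CPM) had covered most of the distance (position 0.81, log2 change 1.87 ± 0.20, adjusted p = 2.7e-06). Pdia6, a protein disulfide isomerase, averaged 295 ± 30.2 CPM in late blastocysts and 97.8 ± 29.7 CPM in morulae (SD, n = 4 each) and Edem1, which marks misfolded glycoproteins for degradation, 50.2 ± 2.4 CPM in late blastocysts and 18.6 ± 4.86 CPM in morulae (SD, n = 4 each). Both were in stage order across all 12 libraries, at positions 0.63 and 0.68. Tmbim6, an inhibitor of reticulum-linked cell death, had 156, 197, 157 and 149 CPM in late blastocysts, against 56.3, 81.5, 55.2 and 69.3 CPM in morulae (log2 change 1.29 ± 0.13, adjusted p = 1.7e-06). Herpud1, a degradation factor, stayed low until late (log2 change 1.85 ± 0.19, adjusted p = 2.7e-06, position 0.19).

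Not every reticulum gene followed. Dnajb9, the cochaperone that holds the sensor IRE1 inactive, had 18.9, 24.7, 22.5 and 16.7 CPM in late blastocysts, against 135, 117, 193 and 108 CPM in morulae, with 30.1, 38.5, 22.3 and 46.4 CPM in early blastocysts (log2 change -2.52 ± 0.17, adjusted p = 6.5e-08). Most of its fall came before the early blastocyst (position 0.76). Crebrf, a negative regulator of the response, fell within the same step, with 12.7, 11.7, 14.9 and 12.3 CPM in late blastocysts, against 43.2, 31.9, 40.03 and 40.3 CPM in morulae (log2 change -1.36 ± 0.14, adjusted p = 1.9e-06). The sensor and cofactor genes Atf6 and Atf6b fell (log2 change -0.49 ± 0.16, adjusted p = 0.015 and log2 change -0.90 ± 0.16, adjusted p = 2.5e-04). The main chaperone genes Hspa5 and Calr rose by small amounts as deposited (log2 change 0.49 ± 0.18, adjusted p = 0.031 and log2 change 0.67 ± 0.23, adjusted p = 0.022), but not after TMM scaling (adjusted p = 0.13 and 0.07) nor with edgeR or DESeq2 on the recovered reads. Their groups overlapped. Both calls were also lost without morula control number 1, morula Tdgf1 number 1, late blastocyst Tdgf1 number 1 or late blastocyst Tdgf1 number 2, and that of Hspa5 without late blastocyst control number 2, with log2 changes of 0.32 to 0.50 for Hspa5 and 0.43 to 0.66 for Calr. Of the 17 reticulum members that rose and have a RefSeq window, 6 hold the endoplasmic reticulum stress element (35.3%), against 0.253% of tested genes. This element is CCAAT and CCACG with 9 bases between. The ATF6 or XBP1 element, TGACGTGG, was in 0 of the 17 windows, against 1.05% of tested genes. The list was assembled from known genes of this response, so both counts are a description. For 2 of the 6 members with the endoplasmic reticulum stress element, at a gradual position, the stretch is printed as above, with that element in capitals.
Pdia6, chr12:17266439-17266618, plus strand: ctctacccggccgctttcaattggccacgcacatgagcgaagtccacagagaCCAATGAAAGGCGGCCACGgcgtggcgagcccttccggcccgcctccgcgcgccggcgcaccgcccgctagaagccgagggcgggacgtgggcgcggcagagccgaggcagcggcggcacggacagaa
Hsp90b1, chr10:86705415-86705594, minus strand: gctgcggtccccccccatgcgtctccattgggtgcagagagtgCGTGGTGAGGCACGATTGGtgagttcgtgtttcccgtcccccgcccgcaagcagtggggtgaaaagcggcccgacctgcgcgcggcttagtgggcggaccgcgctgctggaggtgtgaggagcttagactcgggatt
The element starts 98 bases before the start site of Pdia6 and 107 bases before that of Hsp90b1, where it reads on the opposite strand. Hsp90b1, the reticulum form of HSP90, averaged 435 ± 43.2 CPM in late blastocysts and 246 ± 75.5 CPM in morulae (SD, n = 4 each), at a position of 0.68, or 0.48 and 0.88 for early blastocyst numbers 1 and 2 (log2 change 0.86 ± 0.17, adjusted p = 5.5e-04).

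Of 31 cytosolic heat shock genes 9 rose, 16 fell and 6 did not pass, with a median of -0.32 (7 rose and 17 fell after TMM). The members that fell make up 51.6%, against 25.7% of all genes tested. Members of the HSP90 and HSP70 machinery were among those that fell. Stip1, the adaptor that passes clients from HSP70 to HSP90, had 354, 320.0, 263 and 353 CPM in late blastocysts, against 1392, 1234, 1436 and 1283 CPM in morulae. The early blastocyst libraries still had 1195, 1391, 1204 and 1577 CPM, a position of 0.00, and the late blastocyst values were clear of all others (log2 change -2.05 ± 0.11, adjusted p = 5.4e-09). Hsp90ab1, constitutive HSP90, had 2434, 2207, 2025 and 2236 CPM in late blastocysts, against 5343, 5300.0, 5309 and 5465 CPM in morulae (log2 change -1.27 ± 0.09, adjusted p = 7.1e-08). Dnaja1, an HSP70 cochaperone, had 839, 678, 565 and 749 CPM in late blastocysts, against 2413, 2674, 3059 and 3394 CPM in morulae (log2 change -2.02 ± 0.13, adjusted p = 4.2e-08). Neither gene's groups overlapped, and Hspa8, constitutive HSP70, also fell late (log2 change -1.05 ± 0.10, adjusted p = 9.6e-07, position 0.15). Dnajb6 fell evenly, with 676, 665, 748 and 639 CPM in late blastocysts, against 1461, 1286, 1446 and 1370.5 CPM in morulae, and was the only heat shock member in stage order across all 12 libraries (position 0.56, log2 change -1.02 ± 0.09, adjusted p = 3.7e-07).

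The transcription factor gene Hsf1 fell slightly (log2 change -0.41 ± 0.12, adjusted p = 0.009). Among the members that rose were Hspb1, a small heat shock protein (log2 change 1.26 ± 0.14, adjusted p = 4.1e-06, position 0.96), Cryab, another (log2 change 1.34 ± 0.14, adjusted p = 2.0e-06, position 0.21), and Serpinh1, the collagen chaperone (log2 change 1.87 ± 0.19, adjusted p = 1.8e-06, position 0.01), which is also on the primitive endoderm list. The HSP90 cochaperone gene Fkbp4 was highest in early blastocysts, with 991, 856, 1085 and 907 CPM, and averaged 772 ± 66.1 CPM in late blastocysts and 407 ± 24.2 CPM in morulae (SD, n = 4 each). The inducible Hspa1a was below the filter and its near-identical copy Hspa1b averaged 2.48 ± 2.0 CPM in late blastocysts and 9.46 ± 4.61 CPM in morulae (SD, n = 4 each), so reads of this pair are uncertain. Genes with many processed copies in the genome, such as Hsp90ab1, Hspa8 and the ferritins, carry the same doubt.

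The letters GAANNTTC, the inverted pair of heat shock element units that reads the same on both strands, are held by 6 of 12 members that fell and have a window (50%) and by 3 of 7 that rose (42.9%), against 7.02% of tested genes, so members of both directions carry them. The list was assembled from known heat shock genes, so these counts are a description. A falling and a rising member are shown, with matches to GAANNTTC in capitals.
Dnaja1, chr4:40722318-40722497, plus strand: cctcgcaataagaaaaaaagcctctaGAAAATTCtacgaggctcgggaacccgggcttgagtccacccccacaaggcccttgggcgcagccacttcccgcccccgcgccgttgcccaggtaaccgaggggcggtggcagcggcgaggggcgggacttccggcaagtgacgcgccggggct
Hspb1, chr5:135887769-135887948, plus strand: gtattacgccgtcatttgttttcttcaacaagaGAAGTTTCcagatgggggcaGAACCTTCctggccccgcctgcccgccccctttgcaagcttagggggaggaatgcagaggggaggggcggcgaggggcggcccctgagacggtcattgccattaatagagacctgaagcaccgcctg
Dnaja1 has 1 match, 124 bases before the start site of 1 of its 3 listed windows, and Hspb1 has 2, 117 and 97 bases before the start.

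**Figure D4:**
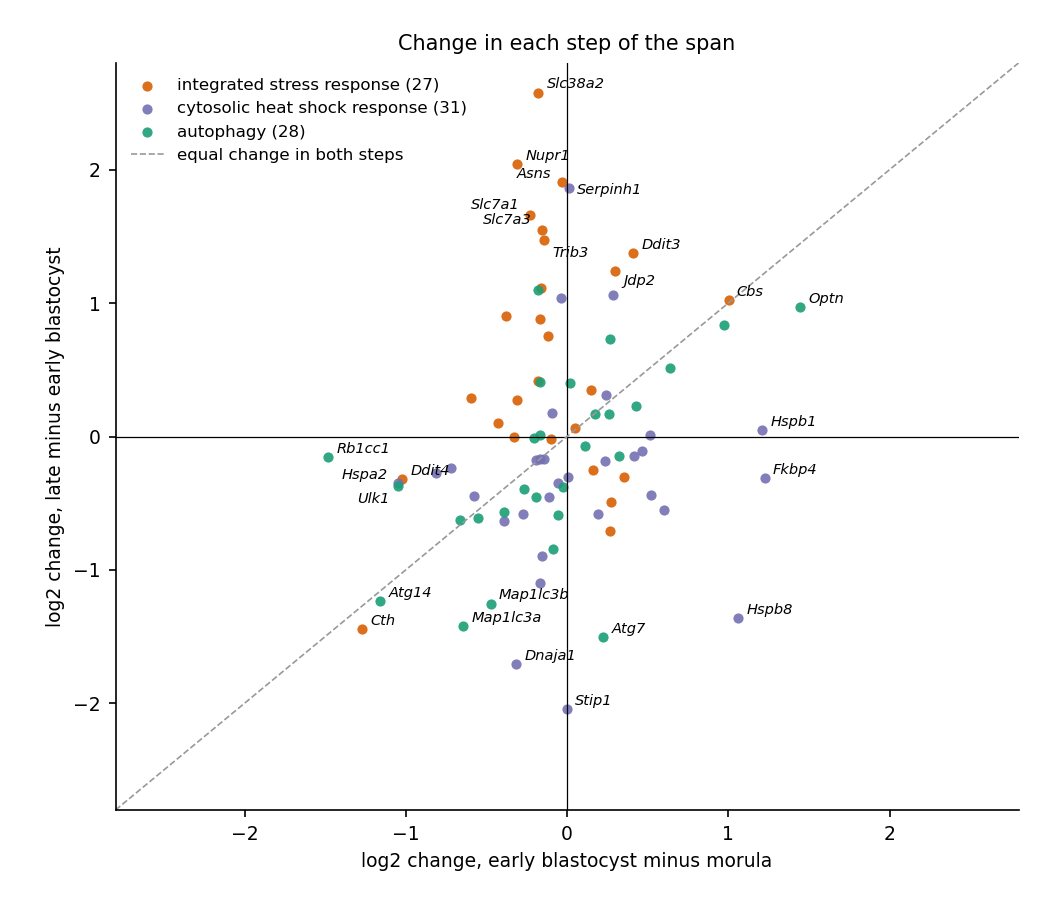
Log2 change from morula to early blastocyst (horizontal axis) against that from early to late blastocyst (vertical axis) for the tested members of the integrated stress response, heat shock and autophagy lists, 1 point per gene; the dashed line marks equal change in both steps. Slc38a2, Asns and Trib3 lie near the vertical axis above 0 and Stip1 near it below 0, while Cth and Atg14 lie near the dashed line; both steps share the early blastocyst libraries.

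Of 15 mitochondrial chaperone and protease genes 9 rose, 1 fell and 5 did not pass (median 0.38). The share called, 66.7%, is near the 64.9% of all genes and is not a result about the list. After TMM scaling 7 rose and 4 fell, with DESeq2 5 rose and 4 fell, and in the Tdgf1 siRNA libraries alone 4 rose. Hspe1, the small partner of the HSP60 chaperonin, had 391, 365, 373 and 451 CPM in late blastocysts, against 267, 222, 239 and 232 CPM in morulae (log2 change 0.71 ± 0.10, adjusted p = 2.8e-05). Spg7, a subunit of an inner membrane protease, averaged 30.03 ± 6.26 CPM in late blastocysts and 11.7 ± 3.27 CPM in morulae (SD, n = 4 each), and Trap1, mitochondrial HSP90, 89.7 ± 8.82 CPM in late blastocysts and 54.5 ± 3.03 CPM in morulae (SD, n = 4 each). Clpx, the unfoldase of the matrix protease ClpXP, was the member that fell, with 126, 123, 135 and 135 CPM in late blastocysts, against 335, 289.9, 366 and 332 CPM in morulae. It did so in stage order in all 12 libraries (position 0.45, log2 change -1.32 ± 0.09, adjusted p = 4.0e-08).

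In the antioxidant list, the longest, 26 of 44 members were called higher (59.1%, against 39.2% of all genes), 8 lower and 10 neither (median 0.59), and after TMM scaling 23 rose and 9 fell. Of the 34 called members 13 were gradual (38.2%, against 47.6% of all called genes), 8 of them with each early blastocyst number alone. For 8 of the 34 the early blastocyst lay beyond the late blastocyst, as for 660 of all 7050 called genes. Glrx, glutaredoxin, had 259, 201, 241 and 226 CPM in late blastocysts, against 11.7, 27.9, 7.65 and 14.2 CPM in morulae. Values did not overlap, and the early blastocyst libraries (199, 143, 217 and 109 CPM) were already close to the late ones (position 0.86, log2 change 3.74 ± 0.22, adjusted p = 1.8e-08). Gsta4, a glutathione transferase for lipid aldehydes, had 248, 313, 378 and 400.2 CPM in late blastocysts, against 48.1, 30.4, 32.7 and 21.2 CPM in morulae. All 12 libraries were in stage order (position 0.52, log2 change 3.23 ± 0.20, adjusted p = 2.6e-08). Park7, the redox-sensitive protein DJ-1, had 233, 249, 288 and 278 CPM in late blastocysts, against 94.6, 106, 112 and 108 CPM in morulae, again in stage order (position 0.60, log2 change 1.28 ± 0.09, adjusted p = 5.3e-08). Txnip, an inhibitor of thioredoxin, had 54.1, 47, 52.1 and 34.9 CPM in late blastocysts, against 0.518, 5.58, 0 and 0.665 CPM in morulae. It rose late (position 0.17, log2 change 3.35 ± 0.23, adjusted p = 7.3e-08), and 1 morula value, 5.58 CPM, stood above the other 3.

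Gpx3, Glrx5, Prdx2 and Prdx4 were the other antioxidant members in stage order, with log2 changes of 2.14, 1.30, 1.06 and 1.10. The regulator genes Nfe2l2, which encodes NRF2, and Keap1, which encodes its inhibitor, both rose (log2 change 0.72 ± 0.12, adjusted p = 1.9e-04 and log2 change 0.75 ± 0.11, adjusted p = 7.0e-05), and Bach1, a repressor at the same elements, fell (log2 change -0.75 ± 0.12, adjusted p = 8.8e-05). Superoxide dismutases split, with Sod2 higher (log2 change 1.15 ± 0.12, adjusted p = 2.4e-06) and Sod1 lower (log2 change -0.49 ± 0.12, adjusted p = 0.0038). Glutathione synthesis split as well. Gclm, the modifier subunit of the first enzyme, averaged 34.7 ± 4.55 CPM in late blastocysts and 122 ± 24.5 CPM in morulae (SD, n = 4 each) and had kept 117 CPM in early blastocysts. Gss, the second enzyme, averaged 149 ± 23.7 CPM in late blastocysts and 59.6 ± 18.4 CPM in morulae (SD, n = 4 each) and was higher still in early blastocysts, at 203 CPM. The catalytic subunit Gclc and the NRF2 target Hmox1 did not pass (log2 changes 0.22 and 0.06). Sqstm1, an autophagy receptor and NRF2 target, peaked in early blastocysts at 443 CPM and averaged 149 ± 17.3 CPM in late blastocysts and 316 ± 11.9 CPM in morulae (SD, n = 4 each). The core letters of the antioxidant element, TGACNNNGC, are in 16% of the windows of the members that rose, close to 17.2% of tested genes.

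Metallothioneins, which bind zinc and copper, did not pass. Mt1 had 1559, 1849, 1817 and 1753 CPM in late blastocysts, against 2179, 1232, 1473 and 1009 CPM in morulae, and these ranges overlap (log2 change 0.30 ± 0.18, adjusted p = 0.15). Without morula Tdgf1 number 1, the highest morula value, Mt1 passed with a log2 change of 0.51. Mt2 averaged 632 ± 50.2 CPM in late blastocysts and 644 ± 253 CPM in morulae (SD, n = 4 each). Of the 5 metal response genes Mtf1, their activator, rose (log2 change 0.45 ± 0.11, adjusted p = 0.0034) and the zinc transporters Slc30a1 and Slc39a10 fell (-0.31 and -0.31), calls that several alternatives lost.

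Of 25 p53 targets and arrest genes 8 rose, 7 fell and 10 did not pass. The share called, 60%, is near the 64.9% of all genes and is not a result about the list. The members that rose numbered 5 after TMM scaling and 3 with edgeR, and those that fell numbered 8 after TMM scaling and 3 in the Tdgf1 siRNA libraries alone. Trp53 itself fell (log2 change -0.57 ± 0.15, adjusted p = 0.0051), with overlapping values. Cdkn1a, the gene of the cyclin-dependent kinase inhibitor p21, had 123, 126, 62.2 and 78.8 CPM in late blastocysts, against 168, 181, 150.05 and 113 CPM in morulae. Its values overlapped between the stages, with both late blastocyst Tdgf1 libraries above the lowest morula library (log2 change -0.67 ± 0.12, adjusted p = 3.9e-04). Ei24, a reticulum membrane protein, fell (33.9, 34.7, 33.5 and 22.3 CPM in late blastocysts, against 73.7, 77.3, 67.2 and 68.1 CPM in morulae, log2 change -1.13 ± 0.13, adjusted p = 4.6e-06). Btg2, an antiproliferative gene, had 28.2, 21, 19.4 and 19.7 CPM in late blastocysts, against 6.64, 9.61, 4.76 and 6.27 CPM in morulae (log2 change 1.31 ± 0.16, adjusted p = 8.3e-06). Phlda3, an inhibitor of AKT, averaged 49.3 ± 12.5 CPM in late blastocysts and 25.1 ± 5.07 CPM in morulae (SD, n = 4 each). Both rose after the early blastocyst, which had 4.68, 5.97, 5.70 and 8.71 CPM for Btg2. The death genes Bbc3, Pmaip1 and Bax did not pass (log2 changes 0.13, 0.17 and 0.11).

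Hypoxia genes were also divided, 7 rising (35%, near the 39.2% of all genes), 8 falling (40%, against 25.7%) and 5 not passing of 20. After TMM scaling 6 rose and 10 fell. Ndrg1, a differentiation and hypoxia gene, had the largest change of all stress members, with 184, 447, 446 and 311 CPM in late blastocysts, against 7.42, 2.75, 3.92 and 1.52 CPM in morulae. The libraries followed stage order (log2 change 5.52 ± 0.28, adjusted p = 4.2e-09), though early blastocyst number 2 had 8.96 and 7.63 CPM and number 1 had 36.5 and 72.7 CPM. Hif1a had 98.5, 80.04, 81.7 and 106 CPM in late blastocysts, against 27.9, 28.2, 32.6 and 37.3 CPM in morulae, and Vhl, which targets its product for destruction, averaged 48.1 ± 6.67 CPM in late blastocysts and 118 ± 4.88 CPM in morulae (SD, n = 4 each). Both were in stage order at positions 0.56 and 0.32 (log2 change 1.44 ± 0.12, adjusted p = 4.5e-07 and log2 change -1.24 ± 0.11, adjusted p = 7.6e-07). The position of Hif1a was 0.78 for the early blastocyst libraries numbered 1 and 0.34 for those numbered 2. Of 7 gradual members of the hypoxia list 1 stayed gradual with each early blastocyst number taken alone. The mitophagy receptors that HIF1 induces fell: Bnip3 had 454, 529, 533 and 571 CPM in late blastocysts, against 1090.3, 1171, 1034 and 1248 CPM in morulae (log2 change -1.12 ± 0.09, adjusted p = 3.7e-07) and Bnip3l had 248, 212, 216 and 222 CPM in late blastocysts, against 645, 582, 636 and 507 CPM in morulae (log2 change -1.38 ± 0.10, adjusted p = 6.9e-08), without overlap in either gene.

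Of 18 immediate early and stress kinase genes 11 rose (61.1%, against 39.2% of all genes), 2 fell and 5 did not pass (median 0.67, 11 and 4 after TMM). Fos, Fosb and Egr1 were below the filter, with maxima of 2.99, 0.349 and 1.01 CPM. Dusp6, a phosphatase of ERK, had 41.1, 68.1, 63.9 and 62.2 CPM in late blastocysts, against 3.45, 6.59, 4.20 and 3.23 CPM in morulae (log2 change 2.97 ± 0.19, adjusted p = 2.9e-08). Klf6 had 240.0, 211, 207 and 273 CPM in late blastocysts, against 45.2, 40.2, 25.4 and 16.1 CPM in morulae (log2 change 2.82 ± 0.20, adjusted p = 7.3e-08). Gadd45g, an activator of stress kinase signalling, had 39.5, 48.6, 47.9 and 28.9 CPM in late blastocysts, against 5.44, 4.30, 7.0 and 6.84 CPM in morulae (log2 change 2.23 ± 0.18, adjusted p = 2.6e-07). These 3 followed stage order in all 12 libraries, at positions 0.47, 0.56 and 0.38. Zfp36l1, an RNA decay factor, averaged 14.2 ± 3.47 CPM in late blastocysts and 2.38 ± 0.881 CPM in morulae (SD, n = 4 each), whereas its relative Zfp36 and the AP-1 gene Jun fell (-0.79 and -0.76).

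Of the 12 lists, autophagy had the highest gradual share. Of 28 members tested 14 fell (50%, against 25.7% of all genes), 8 rose (28.6%, against 39.2%) and 6 did not pass. After TMM scaling 15 fell and 7 rose. Of the 22 called members 15 were gradual (68.2%, against 47.6% of all called genes), 8 of these with each early blastocyst number alone. In the limma midpoint test 6 of the 22 lay off the midpoint. Among these were 2 counted as gradual, Map1lc3b (position 0.27, adjusted p = 0.014) and Map1lc3a (position 0.31, adjusted p = 0.027). With the early blastocyst libraries numbered 2 alone both were late. In stage order in all 12 libraries were 8 members (28.6% of members tested, against 11.8% of all genes). The ubiquitin-like genes that coat autophagosomes did not move together. Map1lc3b had 2111, 1731, 1581 and 1744 CPM in late blastocysts, against 6271, 5581, 6199 and 5598 CPM in morulae with 3849, 4905, 3662 and 4715 CPM in early blastocysts (log2 change -1.73 ± 0.10, adjusted p = 1.5e-08). Map1lc3a had 112, 127, 81.9 and 90.3 CPM in late blastocysts, against 537, 433, 412 and 379.8 CPM in morulae (log2 change -2.07 ± 0.10, adjusted p = 2.6e-09). Gabarap, of the same protein family, averaged 155 ± 7.73 CPM in late blastocysts and 68.1 ± 9.12 CPM in morulae (SD, n = 4 each), and Gabarapl2 did not pass (0.04).

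Atg14, the autophagy subunit of the lipid kinase VPS34, had 39.4, 34.3, 34.5 and 36.9 CPM in late blastocysts, against 232, 189.6, 235 and 170.5 CPM in morulae, a gradual fall (position 0.48, log2 change -2.39 ± 0.12, adjusted p = 3.9e-09). Rb1cc1, a scaffold of the ULK1 kinase complex, had 121, 133, 113 and 125 CPM in late blastocysts, against 394, 375, 398 and 395 CPM in morulae, most of it lost before the early blastocyst (124, 126, 134 and 169.6 CPM, position 0.90, log2 change -1.64 ± 0.09, adjusted p = 5.6e-09). Ulk1 fell with it (log2 change -1.42 ± 0.14, adjusted p = 1.9e-06), and the lipid transfer genes Atg2a and Atg9a fell in stage order (log2 change -1.16 ± 0.13, adjusted p = 3.6e-06 and log2 change -1.30 ± 0.16, adjusted p = 1.5e-05). Higher in late blastocysts and in stage order were Optn, an autophagy receptor, which averaged 55.7 ± 6.14 CPM in late blastocysts and 7.85 ± 2.94 CPM in morulae (SD, n = 4 each), and Tfeb, the transcription factor for lysosomal genes, which averaged 99.6 ± 7.63 CPM in late blastocysts and 27.8 ± 12.4 CPM in morulae (SD, n = 4 each). The receptor gene Sqstm1, given above with the antioxidant genes, was lower.

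In the fit without a replicate block, which on simulated data found few small differences, no gene passed for a change over the span that differed between the siRNA arms. Tdgf1, the targeted gene, had 49.5, 70.8, 97.3 and 84.6 CPM in late blastocysts, against 15.5, 11, 29.4 and 23.4 CPM in morulae, so at both stages it was lower in each Tdgf1 siRNA library than in either control, and it rose over the span in both arms (log2 change 1.79 ± 0.15, adjusted p = 3.7e-07). For early blastocysts the values were 9.27, 15.2, 21.7 and 13.1 CPM, where the arms overlapped. In limma 0 of 10859 genes passed (smallest adjusted p = 0.577, 229 genes at an unadjusted p under 0.05), and edgeR called 0 as well (271 unadjusted). With same-numbered libraries of a stage as a block limma called 2, Ly6a and 4930550L24Rik. Leaving out morula control number 1 gave 1 gene, Rps3a3, leaving out morula control number 2 gave 1, Ly6a, and leaving out any of the other 6 libraries gave 0. These genes are named after their values were seen. Simulated data of this size had 50 genes at each difference between arms. The test found 48% and 80% of genes at a log2 of -2 and 2, and 6% and 8% at -1 and 1. At the simulated spread most differences of a log2 of 1 were thus missed. That spread was 1 fixed setting for all genes and was not fitted to these libraries, so the shares may differ here. Of the stress genes Asns came nearest. Its log2 change over the span was lower by 1.55 in Tdgf1 siRNA embryos than in controls, with an unadjusted p of 1.1e-04 and an adjusted p of 0.577, and both late blastocyst Tdgf1 values lay below both control values.

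Large changes were ranked among called genes whose groups did not overlap and whose mean over the 8 libraries was at least 10 deposited units, leaving out predicted genes and clone-type names. Within that set they reached a log2 of 8.0 upward and -5.05 downward. Adh1, alcohol dehydrogenase, had 552, 1153, 1464 and 1685 CPM in late blastocysts, against 0.604, 1.46, 0.840 and 0.380 CPM in morulae. It rose through 68.2, 30.2, 251 and 40.9 CPM in early blastocysts (log2 change 8.0 ± 0.24, adjusted p = 7.9e-11). Lgals1, a galectin, had 1456, 2286, 1866 and 2206 CPM in late blastocysts, against 5.95, 8.15, 5.97 and 9.69 CPM in morulae (log2 change 7.46 ± 0.15, adjusted p = 4.2e-12), and Tmsb4x, thymosin beta 4, averaged 1426 ± 78.3 CPM in late blastocysts and 6.29 ± 3.17 CPM in morulae (SD, n = 4 each). Among the 10 genes of the set with the largest rise were also Tspan8, Slc15a2, Dppa1, Ndrg1, Wbp5, Tmprss2 and Lcp1, with log2 changes of 5.14 to 6.29. On the falling side Obox6, an oocyte homeobox gene, had 4.02, 4.32, 3.94 and 3.16 CPM in late blastocysts, against 180.4, 268, 235 and 304 CPM in morulae (log2 change -5.05 ± 0.15, adjusted p = 9.0e-11), and Trim43b, Hand1, Alppl2, Trim43c, Gpd1l, Naalad2, Fam46c, Cited1 and Nin followed, with log2 changes of -4.39 to -3.63. Trim43b and Trim43c belong to a family of near-identical copies, so their separate values are uncertain. All 10 falling genes and 7 of the 10 rising genes were in stage order in all 12 libraries. Stage order requires end groups without overlap, for which these genes were selected, so this count is a description. The share in stage order was 11.8% of all genes tested and 18.1% of called genes.

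Among general lists, glycolysis moved almost as a whole: 12 of 14 tested genes rose (85.7%, against 39.2% of all genes) and 2 fell. The median log2 change was 1.47, against 0.13 for all genes. Tpi1, triose phosphate isomerase, had 373, 428, 542 and 403 CPM in late blastocysts, against 27.3, 28.8, 42.9 and 23.6 CPM in morulae, in stage order (log2 change 3.70 ± 0.15, adjusted p = 7.1e-10). The hexokinase genes moved in opposite directions, with Hk2 at 282 ± 40.9 CPM in late blastocysts and 40.4 ± 9.12 CPM in morulae (SD, n = 4 each) and Hk1 at 5.19 ± 1.67 CPM in late blastocysts and 36.8 ± 19.96 CPM in morulae (SD, n = 4 each). Gapdh averaged 802 ± 135 CPM in late blastocysts and 122 ± 39.9 CPM in morulae (SD, n = 4 each), although many processed copies share its sequence. Of 29 genes of the G2 and M phases 4 rose (13.8%, against 39.2% of all genes), 11 fell (37.9%, against 25.7%) and 14 did not pass. The share called was 51.7%, against 64.9% of all genes. Cdk1, the mitotic kinase, fell (log2 change -1.36 ± 0.10, adjusted p = 8.5e-08) and Ccnb2, cyclin B2, rose (log2 change 1.37 ± 0.13, adjusted p = 1.4e-06). Of 5 maternal oocyte genes that passed the filter 2 rose (40%) and 2 fell (40%), against 39.2% and 25.7% of all genes. Ooep was among those that rose (log2 change 2.29 ± 0.15, adjusted p = 4.1e-08) and Padi6 among those that fell (log2 change -1.62 ± 0.19, adjusted p = 7.5e-06).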

How the data were processed

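RNA of mouse embryos was measured in 12 libraries made with an ultra-low input kit. The submitters' processing notes name HISAT2 2.1.0, Cufflinks, HTSeq, edgeR and mm10 without saying what each was used for. The sources used here do not give the strandedness of counting, so reads of a gene and its antisense partner cannot be told apart. Per the file headers the deposited values are RPKM. The values themselves are CPM divided by a constant: in every library all values are whole multiples of 1 step (100.0% within 0.01 reads), the steps do not change with the gene, and 1 deposited unit equals 3.582 CPM. Levels were therefore converted to CPM, and whole reads were recovered for count tests. A total of 3 reads, the floor for a gene at 0, equals 0.231 to 0.285 CPM in the 8 libraries, and intervals of this kind cover counting error only. Of the gene names 39368 (90.6%) matched GENCODE M21, 27 had been turned into dates and 2 occur more than once. The 13 mitochondrial protein genes are listed at 0 throughout.

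Stage was tested with limma 3.58.1 (trend, R 4.3.3) on log2(deposited value + 1), with stage and siRNA as terms. Fold changes are on this scale and come out too small for low genes. The pseudocount, a filter of 5 or none, TMM and quantile scaling, each siRNA alone, replicate blocks, each library left out, edgeR 4.0.16 and DESeq2 1.42.0 were tried as alternatives. The fits were tested on simulated data. Promoter windows from RefSeq were found for 220 of the 279 tested stress genes and searched on both strands. The members and gene lists were chosen with earlier results of these data known. Values in every library were given for the members with the smallest adjusted p of each stress list, for the leading genes of the 10 largest changes each way, ranked after leaving out means under 10 deposited units, overlapping groups and predicted or clone-type names, and for Tdgf1. Other list members, and Eomes, Krt18, Sox17, Hk2, Serpine2 and Amhr2, were picked after their values were seen.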

Additional observations from a re-analysis of the deposited data

Results flagged for a closer look

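Over the named genes, 178 groups of 4 libraries were examined for a library far from the other 3, by Dixon's ratio of the gap to the whole range, and 8 stood out, about as many as the 1 in 20 that chance gives. Mthfd1 reached 189.6 CPM in late blastocyst control siRNA number 1, against 142 to 145 CPM in the other 3 late blastocyst libraries. Tmbim6 reached 196.9 CPM in late blastocyst Tdgf1 siRNA number 2. Late blastocyst control siRNA number 2 stood apart for 4 genes, with 22.3 CPM for Ei24, 102.9 CPM for Trap1, 255 CPM for Ccnb2 and 2.31 CPM for Trim43c. Among morulae, Txnip had 5.58 CPM in Tdgf1 siRNA number 2, and Tmprss2 had 0.0863 CPM, 1 read, in Tdgf1 siRNA number 1 and 0 in the other 3. None of these genes lost its call when that library was left out.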

How the results depend on the processing

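The counts of genes over the span moved by over 1.5 times under 2 alternatives. With a filter of 5 deposited units, which tests fewer genes, 2726 genes rose (4254 in the main test). In the Tdgf1 siRNA libraries alone, which are fewer samples, 1861 fell (2796 in the main test). Leaving out each library in turn gave 3927 to 4139 genes that rose and 2594 to 2750 that fell. Stress members that rose numbered 99 to 135 and those that fell 51 to 87 over all alternatives. For the difference between siRNA arms, leaving out a library gave 0 to 1 genes, the 1 without morula control number 1 or number 2. Genes off the midpoint in early blastocysts numbered 2743 in the main test. They numbered 1747 with the libraries numbered 1 alone and 3202 with those numbered 2 alone. With number as a block there were 3059, with edgeR 2531 and after TMM scaling 2826. The cause of these differences was not tested. Of 320 gene results 213 kept their direction and side of the threshold under all 23 settings. TMM scaling ended 18 calls and added 18, and Tdgf1 siRNA libraries alone ended 55. Btg1, which did not pass (log2 change 0.09), was at -0.58 in Tdgf1 siRNA libraries alone.

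Labels give the same numbers to both stages. Same-numbered late blastocyst and morula libraries did not deviate together (correlations over genes of -0.055 for Tdgf1 siRNA and -0.148 for controls), so the numbers are not shown to pair the stages. Within a stage, same-numbered Tdgf1 and control libraries had a correlation of 0.099 in late blastocysts and 0.455 in morulae. With number as a replicate block 4292 genes rose and 2839 fell, with averaged pairs 3793 and 2444, and with crossed numbers, a choice made after seeing the data, 4388 and 2914. For the difference between arms, pairs as a block gave 2 genes. With 2 libraries a group and a floor of 3 reads, small differences in low genes were not detectable at this depth.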

Other observations

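Sterol synthesis genes separated the late blastocyst libraries by number rather than by siRNA. Of 22 members, all 22 were higher in both libraries numbered 2 than in both numbered 1, against 13.4% of all genes tested, with a median ratio of 2.17 against 0.978. Idi1, isopentenyl diphosphate isomerase, had 89.4 and 286 CPM in late blastocyst Tdgf1 siRNA numbers 1 and 2 and 99.6 and 321 CPM in controls 1 and 2. Hmgcs1, an early enzyme of the pathway, had 106 and 235 CPM with Tdgf1 siRNA and 116 and 244 CPM in controls. Over the span 10 members rose (45.5%, near the 39.2% of all genes) and 12 did not pass. The number that rose was 6 without late blastocyst control number 2, 6 without late blastocyst Tdgf1 number 2 and 5 in the Tdgf1 siRNA libraries alone. The split among the late blastocyst libraries runs through those values. No cause was tested.

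Processed pseudogenes, copies of messenger RNAs put back into the genome, went down more often than protein-coding genes. Of 158 tested, 12% were higher and 48.1% lower in late blastocysts, with a median log2 change of -0.37 (-0.47 after TMM). Of 9575 protein-coding genes 40.2% were higher and 25.6% lower, with a median of 0.15. Reads of such copies may belong to their parent genes, which was not tested.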
